A study of Arabidopsis thaliana with 8 samples.

Results

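The SWEET genes of Arabidopsis encode sugar transporters of the cell's membranes, and 7 of them were followed here across 3 sorted cell populations of the root tip: SWEET2, SWEET3, SWEET8, SWEET11, SWEET14, SWEET16 and SWEET17. Each was matched by locus tag to a probe set that the annotation assigns to a single gene, which gave 1 probe set per gene, 7 of 13286 genes with such a probe set. The 7 were picked with their levels in these populations already known, so their levels and differences below are a description and carry no test. They were split by where the proteins are known to sit into 4 genes of the plasma membrane (SWEET3, SWEET8, SWEET11 and SWEET14) and 3 genes of the vacuole membrane (SWEET2, SWEET16 and SWEET17). The split follows the rule by which the genes were chosen and general knowledge of the family, not these data.

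SWEET proteins let sugars pass down their concentration gradient, without spending energy. At the plasma membrane they release sucrose or hexoses from the cell, and in the phloem of leaves this release precedes the uptake of sucrose into sieve and companion cells by proton-coupled SUC carriers. At the vacuole membrane they let glucose or fructose in and out of the store that most root cells keep.

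There were 2 arrays of phloem, sorted as sieve cells together with companion cells, 3 arrays of cortex and 3 of differentiating xylem. All plants were labelled wild type Columbia, 6 days old, grown upright at 22 °C with 16 hours of light and 8 hours of darkness on medium with 1% sucrose. The last 1 cm or so of the root was turned into protoplasts, cells without walls, and those expressing a green fluorescent protein were sorted before RNA was taken. The labels name neither the marker lines nor their promoters. The arrays of a population are called biological replicates, with no word on separate cultures, so the spread between them may be partly technical. Values are linear array intensities as the authors deposited them. Differences are on the log2(intensity + 16) scale with the standard error (SE) of a fit over all probe sets, and the added 16 makes them smaller for dim genes.

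Of the marker lists, the phloem list (3 of 13 genes measured) had a summed intensity of 1223 to 1472 on phloem arrays, 170 to 224 on cortex arrays and 32.1 to 36.8 on xylem arrays. The xylem list (3 of 13) ran from 12799 to 14879 on xylem arrays and the cortex list (4 of 4) from 3623 to 4575 on cortex arrays, both far above the other populations. CLE41 made up most of the phloem list sum, at 1436 and 1154 on phloem arrays, where PEAR2 read only 30.9 and 54.4. OPS among the phloem markers and AT1G62500 among the cortex markers were dim everywhere. Root hair genes (2 of 4 measured), which belong to none of the sorted populations, summed to 270.2 to 399.8 on phloem arrays, 94.2 to 133 on cortex arrays and 18.1 to 53.0 on xylem arrays. Endodermis genes (2 of 6) summed to 268 to 302, 465 to 735 and 90.02 to 97.1 in that order. These 2 genes ran opposite ways, with AT1G61590 at 132 and 175 on phloem arrays and 79.8 to 100.06 on cortex arrays, and SGN3 at 127 to 136 and 385 to 635. No pericycle or root cap marker was measured. No measured marker was at 0. Ratios of 3' to 5' signal, which grow with RNA breakage or short copies, were 5.91 to 8.79 in phloem, 1.98 to 2.60 in cortex and 4.89 to 9.74 in xylem for a GAPDH control. For actin they were 21.3 to 23.1, 18.2 to 24.6 and 12.5 to 32.9, and for ubiquitin 3.41 to 4.19, 4.57 to 4.92 and 3.19 to 3.71, in the same order. The part of these differences in the results below was not tested, and in sorted bulk RNA fewer cells of a type and less RNA per cell cannot be told apart.

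All 4 plasma membrane genes were highest in phloem, on both phloem arrays and against every array of the other populations. SWEET11 (AT3G48740), a sucrose exporter, read 1470.5 and 2371 on the phloem arrays, 79.8, 76.9 and 104 in cortex and 73.6, 74.9 and 104 in xylem. The lower phloem array stood far above the brightest array outside phloem, while cortex and xylem overlapped. Its mean outside phloem was 4.52% of the phloem mean in cortex and 4.38% in xylem. On the log2 scale SWEET11 was higher in phloem than in cortex by 4.20 (SE 0.25), and the difference between xylem and cortex was -0.04 (SE 0.23).

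SWEET3 (AT5G53190), a less studied member of the family, read 386 and 538 on phloem arrays, 25.2, 35.9 and 31.6 in cortex and 21.8, 22.7 and 48.0 in xylem. The phloem arrays again lay apart and the other populations overlapped. Its log2 difference was 3.34 (SE 0.29) between phloem and cortex and -3.38 (SE 0.29) between xylem and phloem. SWEET14 (AT4G25010) can carry sucrose and, in other work, gibberellin. It read 143 and 126 on phloem arrays, 6.37, 5.76 and 8.93 in cortex and 4.96, 18.3 and 5.70 in xylem. Outside phloem nearly all of these values were under the added 16, and without detection calls they are not shown to exceed background. The log2 difference of SWEET14 between phloem and cortex, 2.71 (SE 0.24), therefore depends on the added value, and it was 4.09 with 1 added in place of 16 and 1.48 with 64.

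SWEET8 (AT5G40260), also called RUPTURED POLLEN GRAIN1 and known for its part in pollen wall formation, was the least different of the 4. It read 80.03 and 80.4 on phloem arrays, 35.9, 14.5 and 25.5 in cortex and 28.4, 9.02 and 20.1 in xylem. Phloem lay above every other array, by a smaller margin than for the other 3 genes, and cortex and xylem overlapped. Outside phloem its values were low, and without detection calls they are not shown to exceed background. The log2 difference was 1.25 (SE 0.30) between phloem and cortex and -1.49 (SE 0.30) between xylem and phloem. Both depend on the added value.

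**Figure D1:**
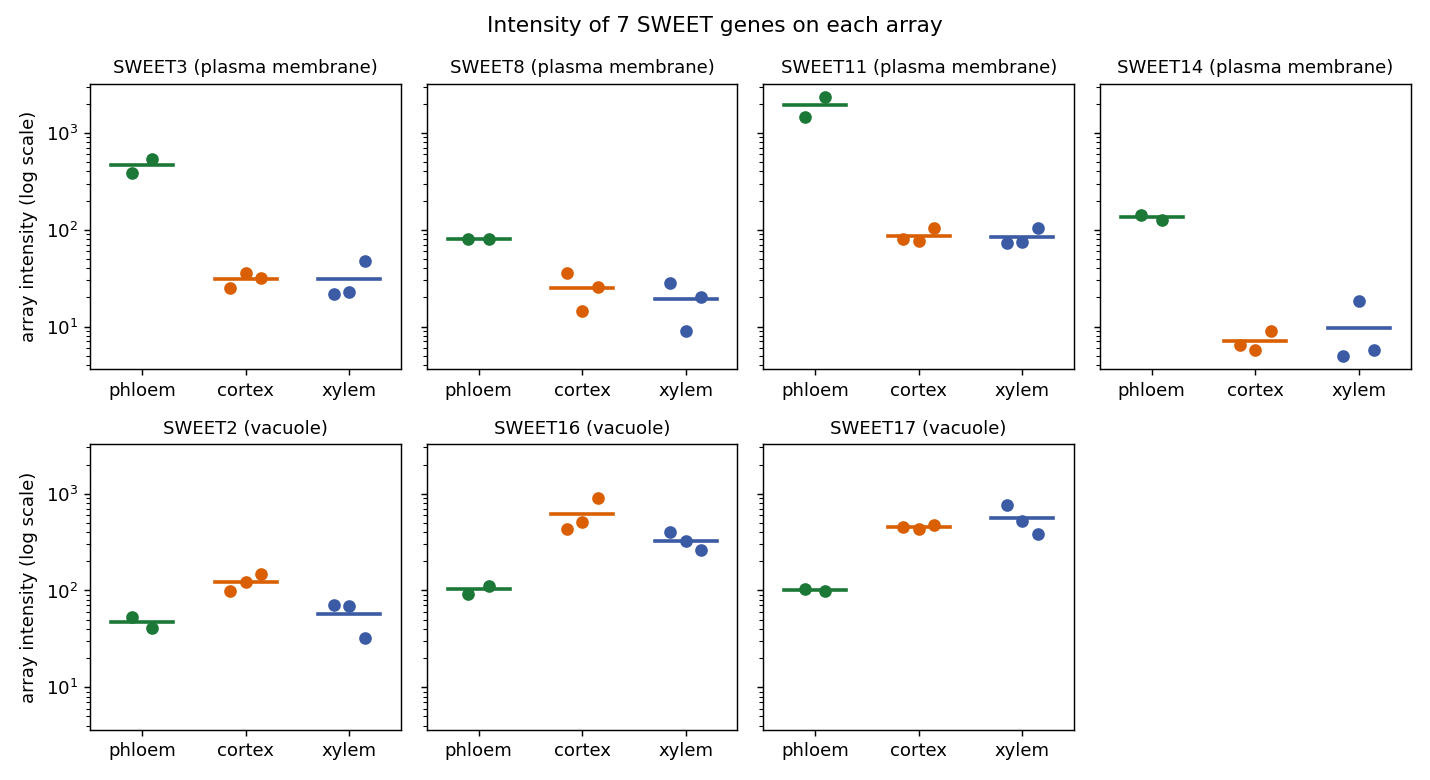
Intensity of each SWEET gene on each array (points, log axis) in phloem (2 arrays), cortex (3) and xylem (3), with the population mean as a bar. The plasma membrane genes in the top row have both phloem points above all others, and the vacuole genes in the bottom row have phloem at or near the bottom. Heights are to be compared within a panel, not between probe sets.

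The 3 vacuole genes ran the other way and had their lowest mean in phloem. SWEET17 (AT4G15920), a fructose transporter, read 104 and 98.4 on phloem arrays, 452, 429 and 474 in cortex and 772, 526 and 378 in xylem. Phloem was lowest by far, and the wide xylem range took in all cortex arrays, so the order of cortex and xylem is not settled. Its phloem mean was 18.1% of the xylem mean. The log2 difference was -1.99 (SE 0.26) for phloem minus cortex and 2.23 (SE 0.26) for xylem minus phloem.

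SWEET16 (AT3G16690), which passes glucose, fructose and sucrose, read 92.7 and 112 on phloem arrays, 430, 512 and 903 in cortex and 397, 321 and 259 in xylem. In the deposited values the populations did not overlap, with cortex highest, xylem between and phloem lowest. The nearest xylem and cortex arrays were close, at 397 and 430. Median intensity over all probe sets was 41.2 to 42.7 on xylem arrays and 61.4 to 62.4 on cortex arrays. Whether SWEET16 arrays overlap after rescaling was not tested. Xylem minus cortex was -0.83 (SE 0.28). The phloem mean was 16.7% and the xylem mean 53.0% of the cortex mean. In log2 units phloem was below cortex, at -2.35 (SE 0.31), and xylem above phloem, at 1.51 (SE 0.31).

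SWEET2 (AT3G14770), which limits sugar loss from roots, had the smallest range of the 3. It read 53.7 and 40.8 on phloem arrays, 97.6, 121 and 148 in cortex and 70.8, 69.1 and 32.6 in xylem. Cortex stood above all other arrays, while phloem and xylem overlapped. SWEET2 differed by -1.12 (SE 0.31) for phloem minus cortex, -0.94 (SE 0.27) for xylem minus cortex and 0.18 (SE 0.31) for xylem minus phloem.

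Counted together, 7 of 7 genes passed a limma adjusted p of 0.05 for phloem minus cortex, with 4 above and 3 below cortex, where 27.0% of all probe sets passed, 12.2% above and 14.8% below. In the same pair the arrays of 7 of 7 did not overlap, 4 above and 3 below, against 56.4% of all probe sets, 25.9% above and 30.5% below. Both phloem arrays lay above every other array in 4 of the 7, against 16.5% of all probe sets, and below every other array in 2 of the 7 (SWEET16 and SWEET17), against 10.7%. For xylem minus phloem 6 of 7 passed, 2 above and 4 below phloem, with 42.4% of all probe sets passing, 13.9% above and 28.5% below. The same 2 and 4 did not overlap, against 21.4% and 38.8% of all probe sets, 60.2% together. For xylem minus cortex 2 of 7 passed (SWEET2 and SWEET16, both below cortex) and 0 above, with 42.6% of all probe sets passing, 13.5% above and 29.1% below. The arrays of 2 of 7 did not overlap there, both below cortex, against 52.2% of all probe sets, 17.5% above and 34.7% below. Because the genes were picked on these values, the counts are given beside the background and nothing is read from them. The comparisons with phloem share the phloem arrays and those with cortex share the cortex arrays, so the counts are not independent.

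The direction of each phloem difference described above, apart from that of SWEET2 against xylem, was kept under every alternative of scaling, added value, filter, model and left-out array in which the gene was measured. The filter removed SWEET8 and SWEET14, so their direction was not looked at under it. For phloem minus cortex, SWEET8 stayed between 0.70 and 1.72 and SWEET2 between -1.66 and -0.74. The SWEET8 call was lost under 4 of 18 alternatives, after spike-in scaling (0.85) and without phloem replicate 1 (1.26), phloem replicate 2 (1.25) or cortex replicate 2 (1.05), and that of SWEET2 without phloem replicate 1 (-1.27), phloem replicate 2 (-0.97), cortex replicate 2 (-1.12) or cortex replicate 3 (-0.99).

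The step between xylem and cortex rests on how arrays are scaled. The median of all probe sets for that pair was -0.14 in the deposited values. Quantile normalization put it at 0.04, median centring at 0.29 and spike-in scaling at -0.77. SWEET17 was at 0.24 (SE 0.235) in the deposited values, at 0.68 after median centring and at -0.70 after spike-in scaling, and it passed under both of these, in opposite directions. SWEET2 ran from -1.76 to -0.42 and SWEET16 from -1.77 to -0.40 over the alternatives, below 0 throughout. The SWEET2 call was lost under 6 of 19 alternatives: quantile normalization (-0.42), median centring (-0.51), trimmed-mean scaling (-0.77), and without cortex replicate 2 (-0.94), cortex replicate 3 (-0.81) or xylem replicate 3 (-0.67). That of SWEET16 was lost under 11 of 19. Quantile normalization (-0.51), median centring (-0.40), trimmed-mean scaling (-0.63), a fit of only the populations compared and a replicate block (-0.83 each) ended it, as did leaving out phloem replicate 1 or 2 (-0.83 each), cortex replicate 2 (-0.93), cortex replicate 3 (-0.53), xylem replicate 2 (-0.83) or xylem replicate 3 (-0.69).

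**Figure D2:**
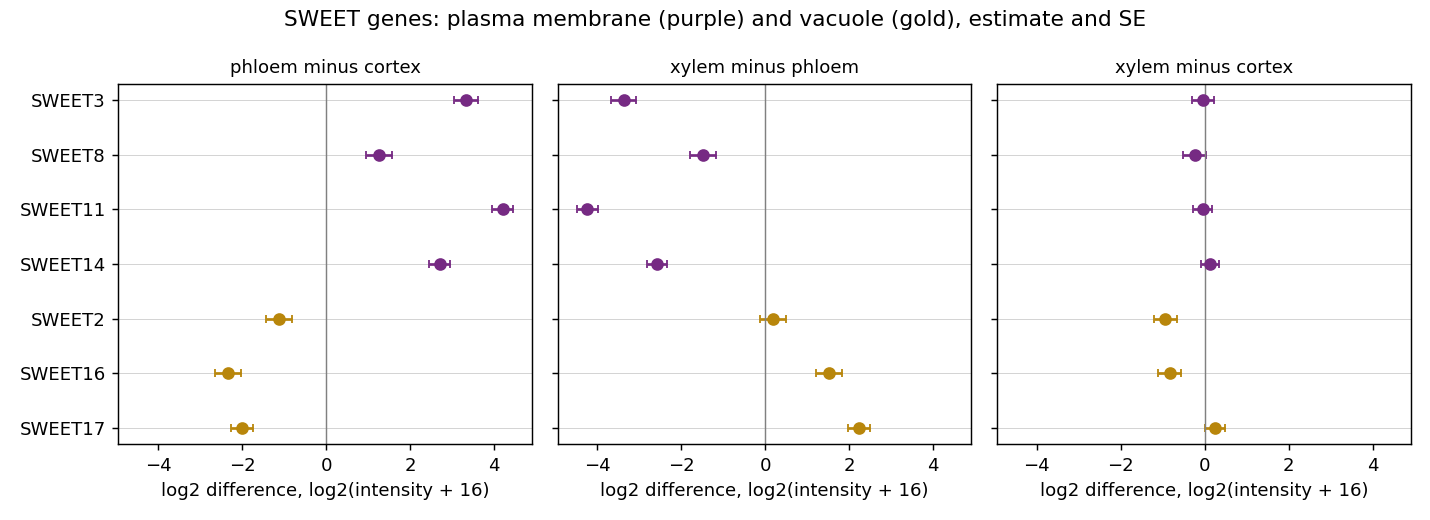
Log2 difference of each SWEET gene in each pair of populations, with bars of 1 SE from the fit over all 8 arrays, for plasma membrane genes (purple) and vacuole genes (gold). For phloem minus cortex the plasma membrane genes lie from 1.25 to 4.20 and the vacuole genes from -2.35 to -1.12.

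Set side by side, the plasma membrane genes had a median log2 difference of 3.02 for phloem minus cortex, with a range of 1.25 to 4.20, and the vacuole genes one of -1.99, with a range of -2.35 to -1.12. The median of all probe sets in that pair was -0.03. The xylem minus phloem medians were -2.98 and 1.51, against -0.15 for all probe sets. Between xylem and cortex the plasma membrane genes had a median of -0.04 and a range of -0.24 to 0.12, and the vacuole genes a median of -0.83 and a range of -0.94 to 0.24.

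A ratio taken within an array removes only part of that array's scaling, since the added 16 dampens scaling more for dim genes. For xylem minus cortex, spike-in scaling moved the plasma membrane median from -0.04 to -0.74 and the vacuole median from -0.83 to -1.76. The ratio was not computed on rescaled arrays. The mean log2 value of the plasma membrane genes minus that of the vacuole genes, set to 0 at the cortex mean, was 4.55 and 4.84 on the phloem arrays. It was 0.24, -0.03 and -0.21 on the cortex arrays and 0.02, 0.30 and 1.06 on the xylem arrays. Phloem lay apart from all other arrays, and cortex and xylem overlapped. Since the genes were picked with their levels known, the gap to phloem follows from that choice under any added value. It is a description and lends no support. With 1 added in place of 16 the phloem arrays stood at 5.36 and 5.68, and with 64 added at 3.40 and 3.66, in each case above the highest xylem array at 1.20 and 0.80.

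**Figure D3:**
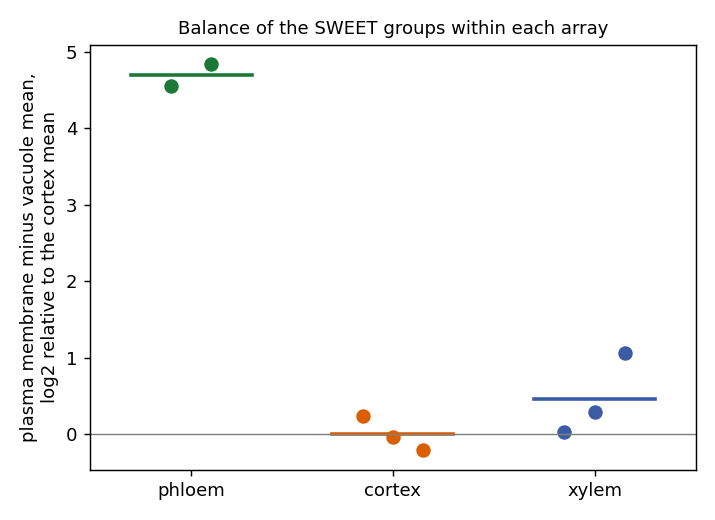
Mean log2(intensity + 16) of the 4 plasma membrane genes minus that of the 3 vacuole genes on each array (points), relative to the cortex mean, with the population mean as a bar. The phloem arrays stand at 4.55 and 4.84 and no other array is above 1.06, a gap that follows from picking genes with known levels.

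A pattern picked out after its values were seen was xylem replicate 3, which held the lowest xylem value of all 3 vacuole genes (SWEET2 at 32.6, SWEET16 at 259 and SWEET17 at 378) and the highest xylem value of SWEET3 (48.0) and SWEET11 (104). The highest xylem values of SWEET8 (28.4) and SWEET14 (18.3) were in xylem replicates 1 and 2. Cortex replicate 3 held the highest cortex value of the same 3 vacuole genes, at 148, 903 and 474. That array also held the highest cortex value of SWEET11 (104) and SWEET14 (8.93), but not of SWEET3 or SWEET8. SWEET16 spread 2.10-fold from its lowest to its highest cortex array and 1.54-fold in xylem, whereas SWEET17 spread 1.10-fold and 2.04-fold.

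Another 9 SWEET genes had a single-gene probe set: SWEET1, SWEET4, SWEET5, SWEET6, SWEET7, SWEET9, SWEET10, SWEET13 and SWEET15, which RefSeq lists as SAG29. SWEET12, which acts with SWEET11 in leaf phloem, was not analysed here. Of these 9, only SWEET13 (AT5G50800), a sucrose transporter related to SWEET14, passed in any pair. It read 60.2 and 82.8 on phloem arrays, 31.02, 21.9 and 31.7 in cortex and 15.8, 43.9 and 29.8 in xylem, so phloem was above every other array. SWEET13 was higher in phloem than in cortex by 0.98 (SE 0.29, limma adjusted p = 0.037) and below its phloem level in xylem, at -0.97 (SE 0.29, limma adjusted p = 0.0265). The first call was lost under 11 of 18 alternatives, with values of 0.79 to 1.17 without phloem replicate 1 or 2, any 1 cortex replicate, or xylem replicate 3. The other was lost under 8 of 18, with values of -1.15 and -0.78 without phloem replicate 1 or 2 and -0.73 and -0.99 without xylem replicate 1 or 3.

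SWEET1 (AT1G21460), a glucose transporter, was at 137 and 165 on phloem arrays and at 67.4 to 121 elsewhere, a difference from cortex of 0.44 (SE 0.27) that did not pass (limma adjusted p = 0.293). The other 7 stayed between 2.76 and 43.4 on every array. Without detection calls, these values are not shown to exceed background.

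The wider set of sugar genes held 73 genes in 7 lists, the other SWEET genes included, of which 26 had a single-gene probe set. No SUC sucrose carrier of 9 was among them, so the uptake that follows SWEET export in the phloem of leaves was not analysed here. Of the 26, 10 passed for phloem minus cortex, 4 above and 6 below cortex, where 27.0% of all probe sets passed. Xylem against phloem had 8 of 26 passing, 2 above and 6 below phloem, beside 42.4% of all probe sets. For xylem minus cortex 7 of 26 passed, 2 above and 5 below cortex, beside 42.6%. The median log2 difference of the 26 was -0.06, -0.10 and -0.0018 in these pairs, against -0.03, -0.15 and -0.14 for all probe sets.

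The list of vacuolar and related sugar carriers had 6 of 10 genes measured, with 2 higher and 3 lower in phloem than in cortex. The tonoplast monosaccharide transporters, which pump sugars into the vacuole, did not move together. TMT1 (AT1G20840) read 363 and 335 on phloem arrays, 3015, 2741 and 2357 in cortex and 437, 1039 and 409 in xylem, highest on every cortex array. Its difference was -2.89 (SE 0.36, limma adjusted p = 0.000466) for phloem minus cortex, and -2.20 (SE 0.32, limma adjusted p = 0.000541) for xylem minus cortex. TMT2 (AT4G35300) read 481 and 396 on phloem arrays, 36.1, 37.3 and 53.8 in cortex and 43.6, 76.7 and 59.6 in xylem, the opposite order. TMT2 was higher in phloem than in cortex by 2.97 (SE 0.25, limma adjusted p = 5.6e-05) and below its phloem level in xylem, at -2.60 (SE 0.25, limma adjusted p = 6.29e-05).

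TMT3 (AT3G51490) followed TMT2 at a lower contrast, 1.03 (SE 0.22, limma adjusted p = 0.00914) for phloem minus cortex, a call lost without phloem replicate 1 (0.91) and after spike-in scaling (0.57). For xylem minus phloem TMT3 was at -0.96 (SE 0.22, limma adjusted p = 0.00771), lost without phloem replicate 1 (-0.84), under quantile normalization and under median centring (-0.36 each). SFP1 (AT5G27350), a sugar-porter family gene, was lower than in cortex in both phloem at -1.89 (SE 0.24, limma adjusted p = 0.000501) and xylem at -1.96 (SE 0.21, limma adjusted p = 8.89e-05). Its relative SFP2 averaged 28.7 on phloem arrays, 38.4 on cortex arrays and 40.1 on xylem arrays and passed in no pair. AT5G17010, of the same list, was also lower in phloem at -1.75 (SE 0.24, limma adjusted p = 0.000761) and in xylem at -2.58 (SE 0.21, limma adjusted p = 1.63e-05) than in cortex. It was below its phloem level in xylem, at -0.83 (SE 0.24, limma adjusted p = 0.0205), lost under 5 alternatives, among them those without phloem replicate 2 (-0.68) and without xylem replicate 3 (-0.74).

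In the sucrose cleavage list 2 of 16 genes were measured. AT1G62660 read 975 and 920 on phloem arrays, 6035, 6690 and 6357 in cortex and 226, 148 and 173 in xylem, with no overlap between any populations. Phloem minus cortex was -2.73 (SE 0.19, limma adjusted p = 1.67e-05), xylem minus cortex -5.02 (SE 0.17, limma adjusted p = 1.14e-07) and xylem minus phloem -2.30 (SE 0.19, limma adjusted p = 2.39e-05). It was the largest fall from cortex to xylem among the 26 genes and kept its call under all 19 alternatives. The other, cwINV6 (AT5G11920), a fructan exohydrolase, was at 64.4, 59.3 and 42.85 on average in phloem, cortex and xylem and passed in no pair.

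Of 8 sucrose synthesis genes 3 were measured. ATSPS4F (AT4G10120), a sucrose-phosphate synthase, read 68.2 and 83.2 on phloem arrays, 1.46, 7.34 and 1.16 in cortex and 0.69, 10.9 and 2.41 in xylem. Only the phloem values exceeded the added 16, and the gene was higher in phloem than in cortex by 2.26 (SE 0.24, limma adjusted p = 0.000202) and below its phloem level in xylem, at -2.18 (SE 0.24, limma adjusted p = 0.000132). The cortex and xylem values are not shown to exceed background, and both differences depend on the added value, at 4.43 and -4.22 with 1 added and 1.05 and -1.03 with 64. AT2G35840 was highest in cortex, at a mean of 399 against 192 in phloem and 120 in xylem. Its xylem minus cortex difference was -1.66 (SE 0.23, limma adjusted p = 0.000421). For phloem minus cortex it was -0.996 (SE 0.26, limma adjusted p = 0.0204), a call lost without phloem replicate 1 (-1.01), phloem replicate 2 (-0.98), cortex replicate 1 (-0.97) or cortex replicate 3 (-0.96). AT3G54270 differed by 0.93 (SE 0.41) for phloem minus cortex, a call gained without phloem replicate 2 (1.64), and by 0.996 (SE 0.36) for xylem minus cortex and passed in no pair, although the call between xylem and cortex was gained under 11 of 19 alternatives.

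Both measured genes of 6 in the polyol carrier list were higher in xylem. Of all probe sets 13.5% passed as higher in xylem than in cortex and 13.9% as higher than in phloem. AT2G20780 read 203 and 164 on phloem arrays, 438, 309.99 and 319 in cortex and 915, 772 and 793 in xylem. It was thus ordered with phloem lowest and xylem highest, with no overlap. Xylem minus phloem was 2.08 (SE 0.20, limma adjusted p = 5.88e-05) and xylem minus cortex 1.19 (SE 0.18, limma adjusted p = 0.00064), where spike-in scaling left 0.25 and ended the call. Phloem minus cortex was -0.89 (SE 0.20, limma adjusted p = 0.0105), lost without phloem replicate 2 (-0.74). AT2G18480 was dimmer, at 22.97 in xylem against 9.33 in cortex and 5.75 in phloem on average. Its arrays read 2.62 to 24.2, not shown to exceed background without detection calls, so its differences depend on the added value. It was higher in xylem than in phloem by 0.84 (SE 0.21, limma adjusted p = 0.0112), lost without phloem replicate 2 (0.75) and after spike-in scaling (0.63), and than in cortex by 0.65 (SE 0.19, limma adjusted p = 0.0219), lost without cortex replicate 2 (0.44) or xylem replicate 1 (0.64) and under 2 other alternatives. Of 14 hexose carriers 4 were measured (AT1G34580, AT3G19940, AT5G26250 and AT5G61520), and none passed in any pair.

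**Figure D4:**
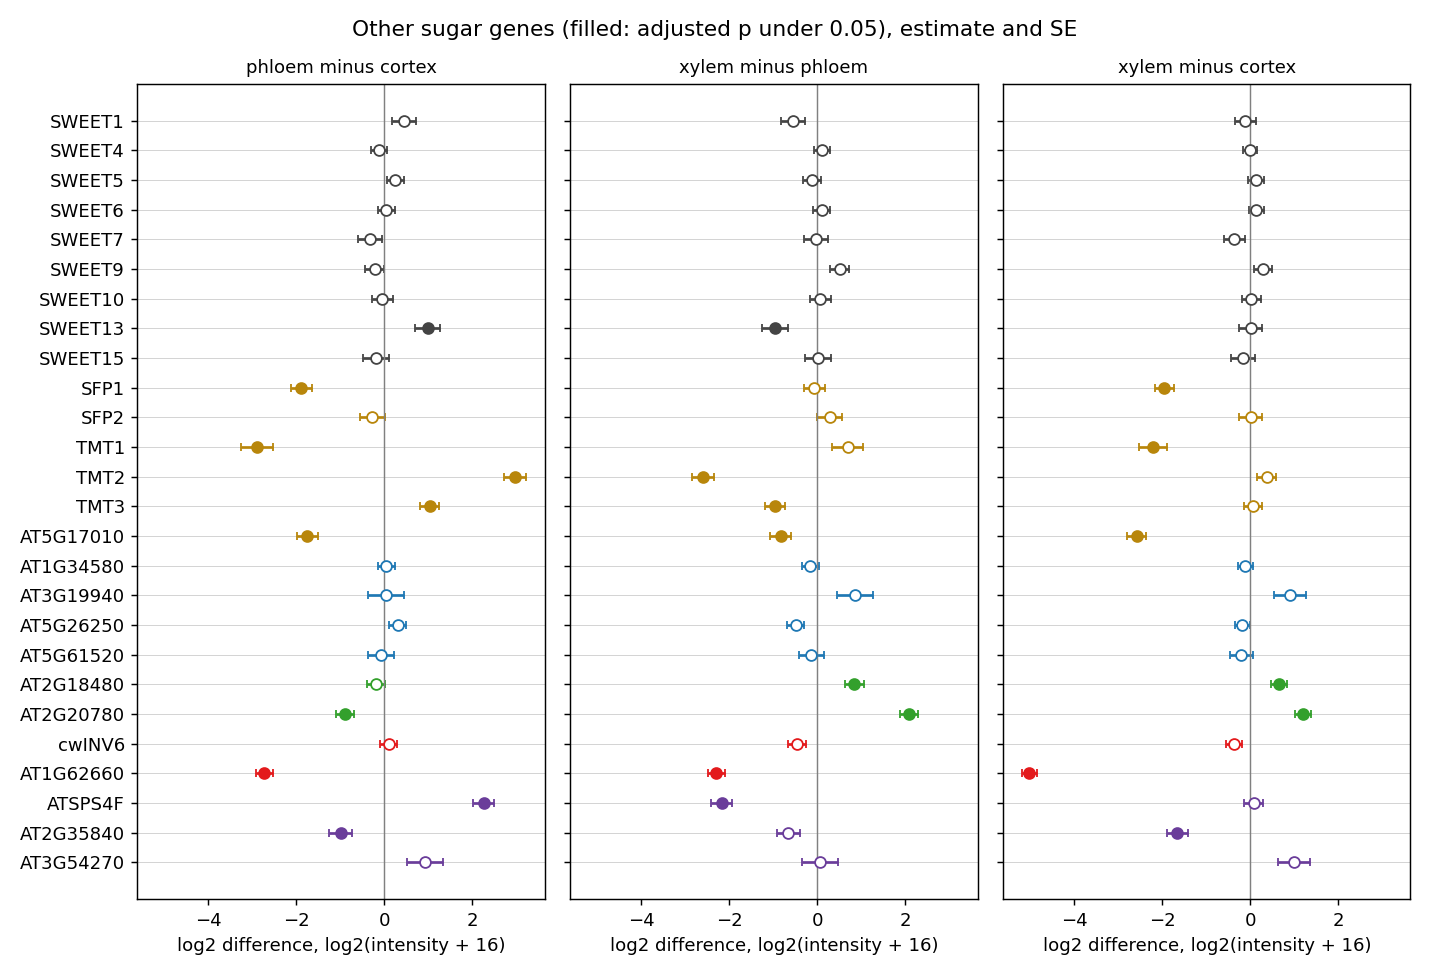
Log2 difference with bars of 1 SE for the 26 other sugar genes in each pair of populations, colored by list (grey other SWEET genes, gold vacuolar and related carriers, blue hexose carriers, green polyol carriers, red sucrose cleavage, purple sucrose synthesis), with filled points where the limma adjusted p was under 0.05. TMT1 and TMT2 lie on opposite sides for phloem minus cortex, at -2.89 and 2.97.

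Profiles most like each SWEET gene were looked for among 880 single-gene probe sets with a symbol and a mean above that of the median probe set. Likeness was the root-mean-square difference over the 8 arrays, in log2 units, after each probe set's own mean was subtracted, and the 5 closest were named. For SWEET11 they were ROXY2, LPR2, Hsp70-2, NDB4 and LCR68, at 0.34 to 0.43. LPR2 (0.28) was also closest to SWEET3, followed by FMO, Hsp70-2, RL2 and ATBRXL2, up to 0.40. Nearest to SWEET14 was ATL4H, at 0.13, and next came TMT2 at 0.17, before rpoC1, RL2 and ZIP6, up to 0.31. SWEET8 was nearest to AGL18, ATG8G, ATG8E, MSRB3 and psaJ, at 0.26 to 0.30.

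Among the vacuole genes, SWEET17 was nearest to ACLB-1, a subunit of ATP citrate lyase, at 0.26, and then to TET7, VHA-A1, ENOC and TUA6, up to 0.41. SWEET2 was nearest to ACLA-3, another subunit of that enzyme, at 0.27, and then to IKU1, EPC1, FBL17 and RHF1A, up to 0.32. The profiles nearest to SWEET16 were FAAH, TBL25, TSC10A, GFAT and ENOC, at 0.42 to 0.50. Their Pearson correlations with SWEET16 were 0.88 to 0.93, and those of the 5 nearest to SWEET2 with that gene 0.83 to 0.88. Since the added 16 makes differences smaller for dim genes, likeness is not to be ranked between SWEET genes.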

How the data were processed

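Transcripts were measured on 8 Affymetrix arrays, 1 per sorted sample. Per the submitters' processing notes, the authors used MAS5, and the deposited values are array intensities on a linear scale. The sources used here do not give its version or target value, and the table holds no detection calls. The number of arrays limits the precision.

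Of 22810 probe sets 64 controls were left out and 22746 tested. Through the platform annotation and a RefSeq table of assembly TAIR10.1, 13513 had 1 gene, and 13436 of these matched RefSeq. Values entered as log2(value + 16), with arrays scaled as deposited. The fit was made with limma 3.58.1 (R 4.3.3), with 1 mean per population over 8 arrays, moderated with an intensity trend (5 residual degrees of freedom plus 3.66 from moderation). Each pair of populations was a contrast with Benjamini-Hochberg adjustment over all tested probe sets and a threshold of 0.05. The fit was tried on simulated data with normal noise, in which only probe sets brighter than the median were changed. That trial does not cover changes in dim genes or differences in array scaling. Members, gene lists and tests were chosen with earlier results of these data known. Named were all members, all measured genes of the sugar lists, and the 5 profiles nearest to each member whose population means differed at least 2-fold. Locus tags without a symbol in the annotation are given as such. Alternatives changed the added value (1 or 64), the scaling, a filter at a mean intensity of 50, the moderation, the arrays in the fit and a replicate block. Spike-in scaling set the arrays to a common geometric mean of 18 control probe sets named bio or cre. Whether these follow the amount of RNA in a sample was not tested. Figures come from matplotlib 3.10.9 (Python 3.11.15). No sequences are shown, and protein identities were not computed, since no sequence table was used here.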

Additional observations from a re-analysis of the deposited data

How the results depend on the processing

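Over the alternatives that kept 2 phloem arrays, 5 to 7 SWEET genes passed for phloem minus cortex. There 5 passed without cortex replicate 2, where 20.6% of all probe sets passed, and also under the intensity filter, which left 5 to test. For xylem minus phloem 6 passed in each of these, except 4 under that filter. Outside the filter 37.3% to 57.5% of all probe sets passed there. Under the filter 43.9% of all probe sets passed for phloem minus cortex and 64.2% for xylem minus phloem. For xylem minus cortex the count of 2 became 0 after quantile normalization and trimmed-mean scaling, 1 with only the populations compared and with a replicate block, and 6 after spike-in scaling. Beside these, 41.9%, 41.8%, 40.4%, 42.0% and 63.5% of all probe sets passed, in that order. The count was 1 after median centring too (54.2% of all probe sets), but that gene was SWEET17, higher in xylem, and SWEET2 and SWEET16 had lost their calls. It ran from 0 to 2 when 1 cortex or xylem array was left out, where 36.1% to 43.6% of all probe sets passed. Sugar list genes passing there numbered 7, but median centring gave 13 and spike-in scaling 16. For xylem minus phloem they numbered 8, and 5 to 9 when 1 array was left out, the 5 without phloem replicate 2. Over all probe sets 6140 passed for phloem minus cortex, but 9600 after spike-in scaling and 3606 without phloem replicate 2, and 9696 for xylem minus cortex, but 14451 after spike-in scaling.

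The median of the plasma membrane genes for phloem minus cortex, 3.02, was 3.97 with 1 added, 1.97 with 64 added, 2.69 after spike-in scaling and 3.77 over the 2 genes left by the intensity filter. For xylem minus phloem, -2.98, it was -3.91 with 1 added, -1.95 with 64 added, -2.37 after median centring and -3.81 over those 2 genes. For xylem minus cortex, -0.04, median centring gave 0.39 and spike-in scaling -0.74. The vacuole median of -1.99 for phloem minus cortex was -2.59 after spike-in scaling, that of 1.51 for xylem minus phloem was 1.95 after quantile normalization and 2.12 after median centring, and that of -0.83 for xylem minus cortex was -0.42, -0.40 and -1.76 after quantile normalization, median centring and spike-in scaling. Spike-in scaling also turned the sign, with a call, of SWEET17 (-0.70), SWEET6 (-0.52), SWEET10 (-0.57), TMT3 (-0.63) and SFP2 (-0.68) for xylem minus cortex. That scaling moved the median of all probe sets in this pair from -0.14 to -0.77. Otherwise the cause was not tested. Of 1437 alternative values of the sugar list genes, 41 lost a call, 46 gained one and 99 changed sign without a call in either setting.

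Replicate numbers are shared by the populations, and same-numbered arrays of xylem and cortex had correlations of their deviations of -0.10, -0.04 and 0.15. Those of phloem and cortex had -0.0012 and -0.03, and those of xylem and phloem 0.13 and 0.15. Since not every pair exceeded 0.1 and the labels give no shared source, the numbers were not taken to pair the arrays. With a replicate block 7, 6 and 1 SWEET genes passed for phloem minus cortex, xylem minus phloem and xylem minus cortex. Of all probe sets 24.5%, 40.1% and 42.0% passed in these pairs. The 2 phloem arrays and the lack of detection calls limit every statement on dim genes.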
